A study of Homo sapiens with 57 samples.

Results

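The 4 genes EREG, EGF, EGFR and HRAS, identified by their Entrez gene IDs 2069, 1950, 1956 and 3265, were followed through all 57 wells of a targeted RNA profile of 412 genes. EREG (epiregulin) and EGF (epidermal growth factor) are ligands, EGFR is the receptor that both bind, and HRAS is a small GTPase that acts below the receptor. HK-2, an immortalized line of human kidney proximal tubule cells, was seeded at 3000 cells per well and received a crude herb extract or DMSO. Roucongrong (Cistanche deserticola), Yinyanghuo (Epimedium brevicornu) and Gusuibu (Drynaria fortunei) were tested in 3 wells each, with 100 μg/mL over 24 h. Each herb was compared with 16 wells of 0.5% DMSO that carried the same number after the cell line in their names (2 for Roucongrong, 4 for Yinyanghuo, 3 for Gusuibu), and a herb with its DMSO wells is called a set. Whether the herb wells also held DMSO was not stated in the labels. No label said that the wells of a group were separate cultures, so the p-values measure the spread between wells, which may be technical.

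EGF family ligands are made as membrane-bound precursors that metalloproteases can cut free. A ligand that binds EGFR makes the receptor form dimers and phosphorylate its own tail, where adaptor proteins dock and pass the signal to RAS, the MAP kinase cascade, the PI3K and AKT arm and phospholipase C gamma. In kidney tubule epithelium EGFR signalling is known for its part in growth and repair after injury. RASL-seq measures RNA, through pairs of probes ligated on the target messenger RNA, and gives no reading of protein or of receptor activity. Counts of different genes also depend on their probes, so levels were compared between wells and not between genes.

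The Roucongrong wells held 31292 to 40077 counts, the Yinyanghuo wells 13581 to 35307 and the Gusuibu wells 18177 to 46019, against 19690 to 75969 over the 48 DMSO wells. The panel held 2 of 17 proximal tubule markers, of which CDH2 (N-cadherin) had 138 to 869 counts and HNF4A had 0 to 3 counts, with 0 in 48 of 57 wells. Their summed level, nearly all CDH2, was 10054 to 11886 CPM in the Gusuibu wells, below all DMSO wells of that set (13234 to 17819 CPM). In the other sets it overlapped DMSO. CDH2 was called with no herb. Of single genes tested, 1.24% had every Gusuibu well below every DMSO well. All marker sums are CPM of the total count, without the TMM scaling used below. Of the markers of other cells, KDR of endothelium was called with Gusuibu and ITGB2 of leukocytes with Yinyanghuo, and the summed levels of the 2 endothelial and 3 leukocyte markers on the panel overlapped between those herb and DMSO wells (326 to 1132 against 43.9 to 955 CPM, and 147 to 821 against 147 to 770 CPM). COL1A2 of fibroblasts was at 0 in 55 wells. The part of these markers in the results was not tested. HK-2 is a single cell line, so these markers were read as gene levels and not as shares of cell types. In bulk counts such as these, a change in some of the cells and a change in all of them cannot be told apart. EREG and EGFR were measured with 187 or more and 53 or more counts in each DMSO well, whereas EGF stayed at 17 counts or fewer and HRAS at 8 or fewer.

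EREG lies at chr4:74365145-74388749 on the plus strand and EGFR at chr7:55019017-55211628 on the plus strand (GRCh38.p14, RefSeq). The RefSeq stretch from 250 bases before to 50 bases after each start is shown for these 2 genes because they carried the well-measured changes. For EREG (chr4:74364895-74365194, plus strand), capitals mark CCAAT at -196 and -95 and TATAAA at -32 from the start, and for EGFR (chr7:55018767-55019066, plus strand), capitals mark GGGCGG read on the other strand, which is CCGCCC as printed.
EREG: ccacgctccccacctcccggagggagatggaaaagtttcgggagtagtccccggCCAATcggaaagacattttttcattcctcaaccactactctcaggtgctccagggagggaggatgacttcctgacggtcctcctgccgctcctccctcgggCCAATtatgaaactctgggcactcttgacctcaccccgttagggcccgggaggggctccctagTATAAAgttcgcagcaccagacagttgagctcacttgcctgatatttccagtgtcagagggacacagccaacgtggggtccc
EGFR: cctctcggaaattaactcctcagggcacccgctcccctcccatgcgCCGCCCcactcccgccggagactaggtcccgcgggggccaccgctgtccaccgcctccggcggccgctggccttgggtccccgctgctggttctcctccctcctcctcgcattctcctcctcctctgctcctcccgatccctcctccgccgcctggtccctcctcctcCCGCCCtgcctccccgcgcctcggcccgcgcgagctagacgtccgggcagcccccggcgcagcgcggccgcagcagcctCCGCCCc
The EREG stretch had 57.7% G and C and the EGFR stretch 75.3%, beside a median of 58.7% over 35116 promoters. TATAAA, searched on both strands like the other letters, was in 11.5% of these promoters, CCAAT in 34.6% and GGGCGG in 45.0%. Neither TGACTCA (4.95% of promoters) nor CACGTG (7.26%) was in either stretch. RefSeq lists a further EGFR start downstream (chr7:55109589-55109888), whose stretch was not printed. That stretch holds TGACTCA at -136 and, on the other strand, at -232, and TATAAA at -146 and -36. These matches describe letters in the reference and were not tested for binding.

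EREG was higher with all 3 herbs. Values are counts scaled to a library total (CPM) with TMM scaling within a set, fold changes are log2 herb over DMSO, and adjusted p-values are from edgeR's quasi-likelihood test with Benjamini-Hochberg adjustment over all genes of a comparison. The criteria of the study defined a call, namely an unadjusted p under 0.05 with a fold change above 1.5 or below 0.67.

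With Roucongrong, the EREG level was 14733, 15491 and 15476 CPM in the 3 wells, and 6159, 8410 and 12079 CPM in the lowest, median and highest DMSO well. All 3 Roucongrong wells were above every DMSO well and lay close together. The log2 fold change was 0.80 (standard error, SE, 0.13; adjusted p = 0.000312; two-sided exact permutation p = 0.00103, the smallest that 969 choices of 3 of 19 wells can give). Of all genes tested in this comparison, 0.995% had every treated well above every DMSO well and 7.21% were called higher.

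With Yinyanghuo, EREG stood at 27126, 14687 and 20996 CPM, against 8611, 10877 and 19349 CPM in the lowest, median and highest DMSO well. The wells of this herb were spread widely, and the second, which had the fewest counts in all (13581), was below 2 of the 16 DMSO wells. The log2 fold change was 0.89 (SE 0.18, adjusted p = 0.00127; exact permutation p = 0.00413), and EREG was called, as were 7.75% of all genes in the higher direction, with 7.5% past the adjusted threshold in either. Every treated well was above every DMSO well in 1.25% of genes, EREG not among them.

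With Gusuibu, EREG stood at 13659, 12495 and 16728 CPM, against 7314, 9722 and 12708 CPM in the lowest, median and highest DMSO well. The second well was below 1 DMSO well and the other 2 were above all 16. A log2 fold change of 0.53 (SE 0.12, adjusted p = 0.0120; exact permutation p = 0.00206) passed the adjusted threshold, as did 5.22% of all genes, but the 1.45-fold rise fell short of a call. EREG was called with RLE normalization (0.59) and without the second Gusuibu well (0.62). Its adjusted p was above the threshold without the second well (0.0534) or the third (0.126, log2 fold change 0.40), with all 57 wells in 1 fit (0.0856), with DMSO wells from the other sets (0.161) and with a replicate block (0.157).

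The rise of EREG was not shown to differ between herbs. In 1 fit of all 57 wells, the change with Yinyanghuo exceeded that with Gusuibu by 0.36 on the log2 scale (SE 0.24, adjusted p = 0.540 in edgeR) and that with Roucongrong by 0.11 (SE 0.24, adjusted p = 0.916). The change with Roucongrong exceeded that with Gusuibu by 0.25 (SE 0.24, adjusted p = 0.596). These SEs leave room for differences of the size of the Gusuibu change itself.

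**Figure D1:**
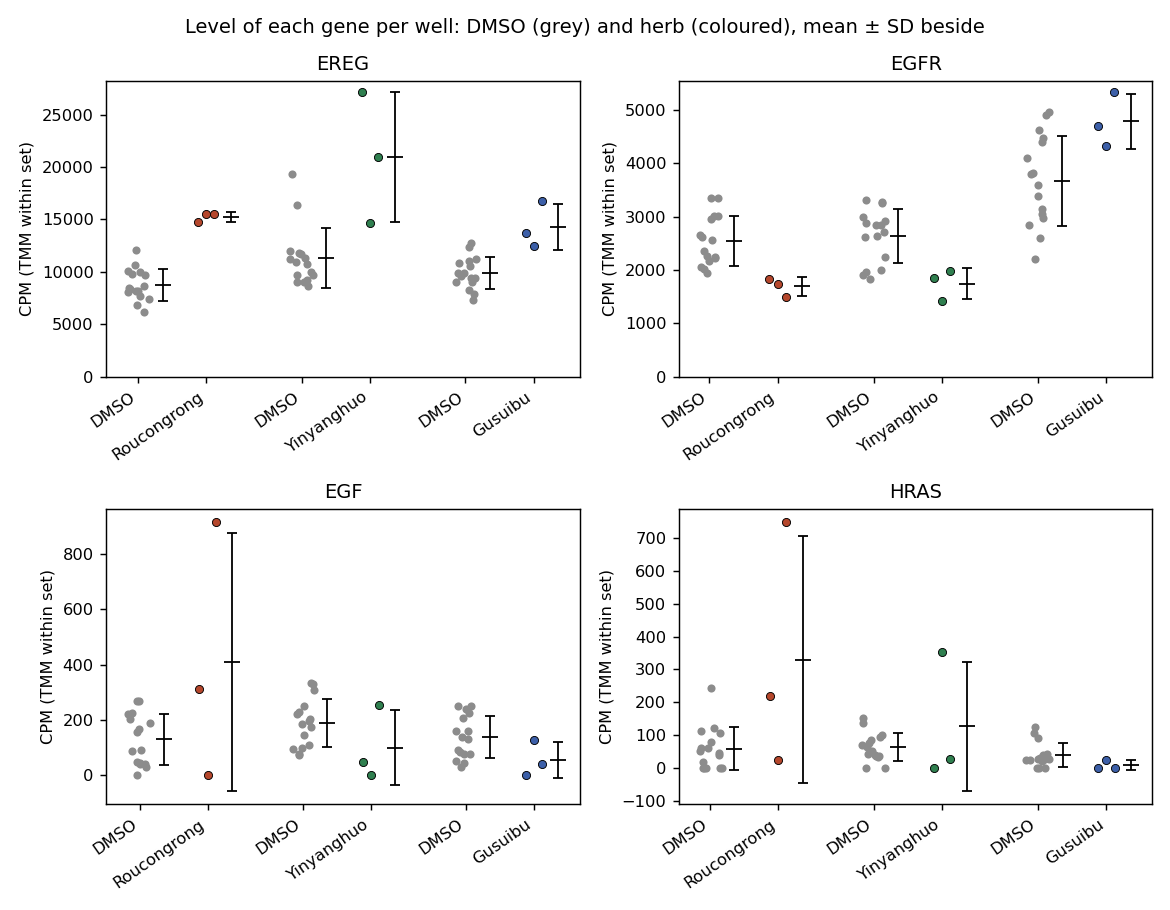
Level of EREG, EGFR, EGF and HRAS in each well, as CPM with TMM scaling within a set. Grey points are the 16 DMSO wells of a set, coloured points the 3 herb wells, and the bars beside them mean ± SD; EREG was higher with each herb, EGFR was below every DMSO well with Roucongrong and below the DMSO median with Yinyanghuo, and the third Roucongrong well stood apart in EGF (33 counts) and HRAS (27 counts).

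EGFR, the receptor of these ligands, was lower than in DMSO with Roucongrong and stood above the DMSO median in each Gusuibu well. With Roucongrong the EGFR level was 1838, 1746 and 1495 CPM, against 1940, 2460 and 3359 CPM in the lowest, median and highest DMSO well. All 3 wells were below every DMSO well, as in 1.24% of genes tested. The log2 fold change was -0.59 (SE 0.17, adjusted p = 0.0538 in edgeR; exact permutation p = 0.00103), and EGFR was among the 2.99% of genes called lower. It was not called without the third well, where the log2 fold change was -0.51 (adjusted p = 0.488).

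With Yinyanghuo, EGFR had 1856, 1412 and 1973 CPM, against 1838, 2777 and 3311 CPM in the lowest, median and highest DMSO well. The second Yinyanghuo well, with 20 EGFR counts, was below every DMSO well, and the highest was above 3 of the 16. The log2 fold change was -0.57 (SE 0.20, adjusted p = 0.0781 in edgeR; exact permutation p = 0.00722), a fold of 0.672 that missed the limit of 0.67, so EGFR was not called here while 7.25% of genes were called lower. It was called without the first well (-0.61) or without the third (-0.68).

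With Gusuibu, EGFR had 4695, 4327 and 5349 CPM, against 2208, 3697 and 4959 CPM in the lowest, median and highest DMSO well. All 3 wells were above the DMSO median, 1 of them was above every DMSO well, and 5 of the 16 DMSO wells were above the lowest. A log2 fold change of 0.38 (SE 0.17, adjusted p = 0.267 in edgeR; exact permutation p = 0.0588) was no call, and 7.71% of genes were called higher and 1.74% lower in this comparison.

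The change of EGFR differed between Gusuibu and each of the other herbs. The change with Roucongrong was lower than that with Gusuibu by a log2 difference of -0.98 (SE 0.25, adjusted p = 0.0204 in edgeR), where 6.55% of genes passed. The change with Yinyanghuo was lower by -0.95 (SE 0.26, adjusted p = 0.0162), where 5.58% of genes passed. Both differences use the same Gusuibu and DMSO wells of that set. Between Yinyanghuo and Roucongrong the difference was 0.03 (SE 0.27, adjusted p = 1.0), where 6.8% of genes passed.

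The DMSO wells of the Gusuibu set also held more EGFR than those of the other sets. With all 57 wells on 1 TMM scale, EGFR averaged 3593 ± 824 (SD, n = 16) CPM in the Gusuibu DMSO wells, 2659 ± 466 (SD, n = 16) in those of Roucongrong and 2574 ± 488 (SD, n = 16) in those of Yinyanghuo. The Roucongrong DMSO wells were lower than the Gusuibu ones by -0.44 (SE 0.10, adjusted p = 0.000489 in edgeR), where 22.6% of genes passed, and the Yinyanghuo DMSO wells by -0.49 (SE 0.10, adjusted p = 0.000556), where 5.83% passed. Each herb had its own number in the labels, which do not say what the number stands for, so a difference between herbs and a difference between sets in how EGFR responds cannot be told apart.

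On that common scale, EGFR in the herb wells averaged 4760 ± 561 (SD, n = 3) CPM with Gusuibu, 1779 ± 133 (SD, n = 3) with Roucongrong and 1730 ± 325 (SD, n = 3) with Yinyanghuo. The order from high to low was thus Gusuibu, then its DMSO wells, the DMSO wells of Roucongrong and Yinyanghuo, and last the wells of those herbs. Of the neighbours tested, the DMSO wells of Gusuibu and Roucongrong differed past the adjusted threshold, whereas Gusuibu and its DMSO wells did not, nor did the DMSO wells of Roucongrong and Yinyanghuo (log2 difference -0.05, adjusted p = 0.841). The Yinyanghuo DMSO wells and the Roucongrong herb wells were not tested against each other, nor were the herb wells of Roucongrong and Yinyanghuo, which lay within their spread.

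EREG followed another order on the same scale. It was highest with Yinyanghuo (20751 ± 6459 SD, n = 3), then Roucongrong (16051 ± 870 SD, n = 3) and Gusuibu (14192 ± 2138 SD, n = 3), followed by the DMSO wells of Yinyanghuo (11006 ± 2745 SD, n = 16), Gusuibu (9669 ± 1509 SD, n = 16) and Roucongrong (9175 ± 1708 SD, n = 16). The SDs of neighbouring herb groups overlapped. Among DMSO wells, EREG was higher in the Yinyanghuo set than in the Roucongrong set by 0.26 (SE 0.09, adjusted p = 0.0330 in edgeR), where 21.4% of genes passed. Against the Gusuibu DMSO wells, neither those of Yinyanghuo (difference 0.19, adjusted p = 0.220) nor those of Roucongrong (-0.07, adjusted p = 0.649) were past the threshold.

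**Figure D2:**
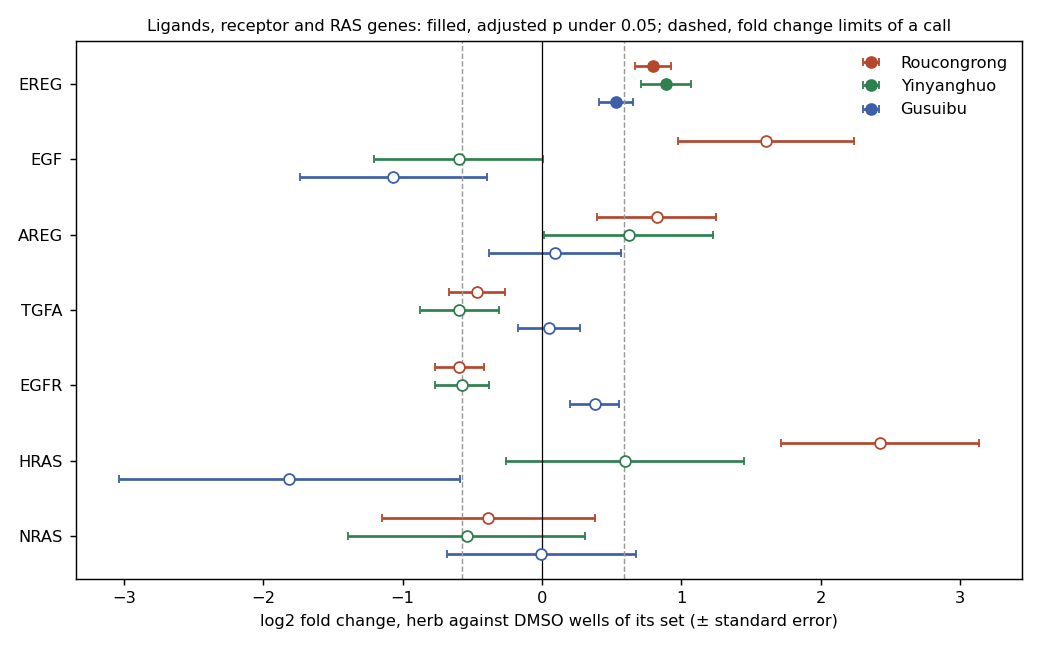
Log2 fold change of each herb against the DMSO wells of its set, with its standard error, for ligand, receptor and RAS genes of the panel. Filled points have an edgeR adjusted p under 0.05 and dashed lines mark fold changes of 1.5 and 0.67; EREG is filled for all 3 herbs, and the EGFR points of Roucongrong (-0.59) and Yinyanghuo (-0.57) lie opposite that of Gusuibu (0.38).

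Ligand and receptor counts were next read together within each well, which needs no scaling between wells. The ratio of EREG to EGFR counts, with 0.5 added to each, was 7.96, 8.82 and 10.3 in the Roucongrong wells, and 2.22, 3.57 and 5.11 in the lowest, median and highest DMSO well. In the Yinyanghuo wells it was 14.4, 10.2 and 10.6, against 2.82, 4.02 and 6.09 in DMSO. In both sets every herb well was above every DMSO well with room between them, the shallow second Yinyanghuo well included. The ratio combines the EREG and EGFR changes given above and is not independent of them. How many other gene pairs would separate in this way was not computed.

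The mean ratio was 2.61-fold higher with Roucongrong (log2 difference 1.39) and 2.74-fold higher with Yinyanghuo (log2 difference 1.45), each with a two-sided exact permutation p of 0.00103 (0.00155 after adjustment over the 3 herbs). With Gusuibu the ratio was 2.90, 2.88 and 3.12, inside the DMSO range of 1.93 to 3.77 (median 2.76). The log2 difference was 0.12 (exact permutation p = 0.342), that is 1.09-fold, as EREG and EGFR both stood above their DMSO medians there. Set against the DMSO wells of Roucongrong and Yinyanghuo, the Gusuibu difference was -0.36 (exact permutation p = 0.118). The size of the ratio depends on the probes of both genes, so only its change between wells can be read, and the difference between herbs in this ratio was not tested.

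**Figure D3:**
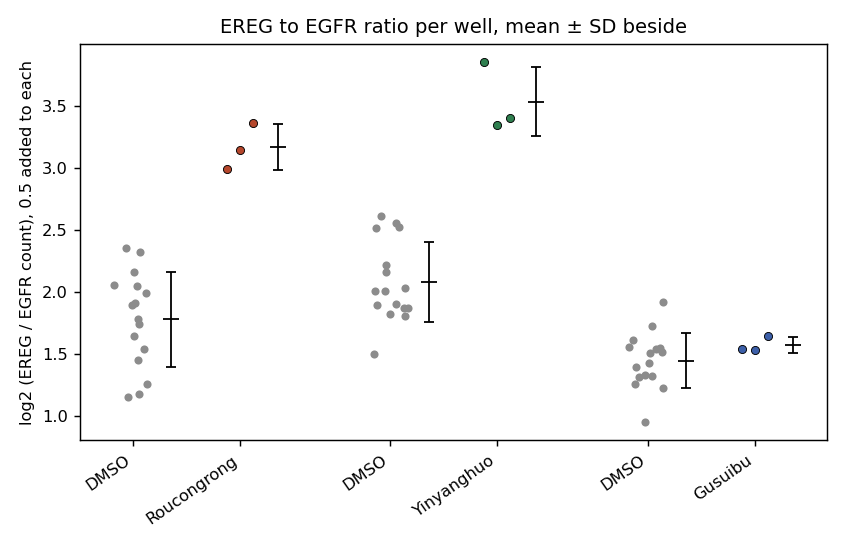
Log2 ratio of EREG to EGFR counts per well, with 0.5 added to each count; grey, DMSO wells; coloured, herb wells; bars, mean ± SD. All Roucongrong and Yinyanghuo wells lie above the DMSO wells of their sets, and the 3 Gusuibu wells lie within theirs.

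Across the DMSO wells, EREG and EGFR varied together in the Gusuibu set, and in the others their relation did not pass adjustment. The relations of the sets were not tested against each other. In the 16 Gusuibu DMSO wells, log2 CPM of both gave Pearson's r = 0.77 (permutation p = 0.00058, adjusted over 9 relations 0.00522) and Spearman's rho = 0.73 (adjusted p = 0.0150). Without the 2 wells farthest from the median of EREG, r was 0.67. In the Yinyanghuo DMSO wells r was 0.43 (permutation p = 0.0923, adjusted 0.277) and rho 0.51 (adjusted p = 0.221), and in the Roucongrong DMSO wells r was -0.15 (permutation p = 0.577) and rho -0.16. Leaving out 2 wells in the same way gave r of 0.30 in the Yinyanghuo set and -0.27 in the Roucongrong set. Neither gene followed the total count of a well past adjustment in any set, with r from -0.11 to 0.44 (the other 6 relations). Without the 2 wells farthest from the median total count, r of total count and EREG in the Roucongrong set was 0.58 in place of 0.30. The rest then ran from -0.17 to 0.25.

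**Figure D4:**
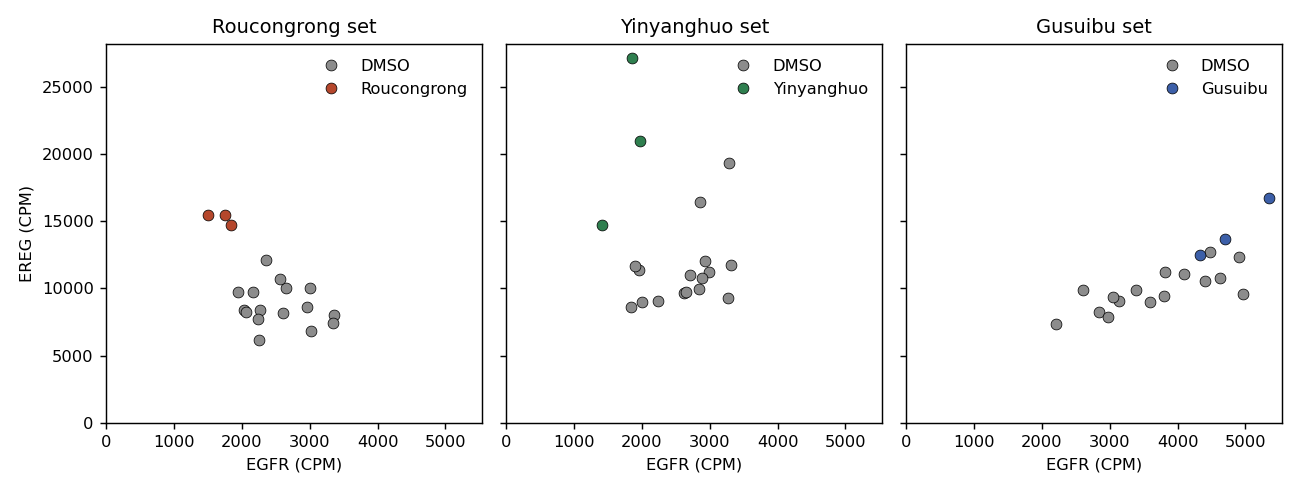
EREG against EGFR in each well of the 3 sets, both as CPM with TMM scaling within a set; grey, DMSO wells; coloured, herb wells. In the Gusuibu set, where EREG and EGFR rise together over the DMSO wells (r = 0.77 on log2 CPM), 2 herb wells lie above every DMSO well in EREG and 1 in EGFR. The Roucongrong and Yinyanghuo wells sit at higher EREG and lower EGFR than nearly all DMSO wells of their sets.

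After the mean of each set was subtracted, the genes whose log2 CPM was most like EREG over the 48 DMSO wells were FN1 (fibronectin, r = 0.61), YWHAZ (a 14-3-3 protein, r = 0.46) and VCAN (the proteoglycan versican, r = 0.42), among 182 genes with enough counts. For EGFR they were MED1 (a Mediator subunit, r = 0.57), CAV1 (caveolin, r = 0.54) and VCAN (r = 0.54). These wells share their libraries' composition, so the values are descriptions. EREG and FN1 parted with Yinyanghuo, where FN1 had a change of -1.48 (adjusted p = 5.14e-06 in edgeR) while EREG rose. VCAN had the sign of EGFR with each herb, but that of EREG with Gusuibu only. Its log2 fold changes were -0.99 with Roucongrong (adjusted p = 0.0281), -1.71 with Yinyanghuo (adjusted p = 0.000294) and 0.75 with Gusuibu (adjusted p = 0.0298). CAV1 also had the sign of EGFR with each herb (-0.25, -0.95 and 0.14), whereas MED1 had -0.61, 0.04 and 0.25. How many other genes had the sign of EGFR with each herb was not counted. Within the Roucongrong, Yinyanghuo and Gusuibu DMSO wells, r of VCAN was 0.43, 0.23 and 0.80 with EGFR. With EREG it was 0.06, 0.56 and 0.67.

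EGF (chr4:109912883-110013766, plus strand) was near the limit of detection in every group. It had 10, 0 and 33 counts with Roucongrong, 1, 0 and 9 with Yinyanghuo and 0, 5 and 2 with Gusuibu. The DMSO wells held 0 to 17 counts (median 5) in the Roucongrong set, 2 to 12 (median 5.5) in the Yinyanghuo set and 1 to 10 (median 4) in the Gusuibu set. With Roucongrong, wells with no EGF count and with more than any DMSO well stood side by side. A count of 0 allows up to 3 counts, counting error only, so a well at 0 does not show that EGF RNA was absent.

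EGF was called with Roucongrong at a log2 fold change of 1.61 (SE 0.63, adjusted p = 0.198 in edgeR; exact permutation p = 0.320), and without the third well the value was 0.13. With Yinyanghuo the log2 fold change was -0.60 (SE 0.61, adjusted p = 0.624; exact permutation p = 0.0423) and 2 of 3 wells were below every DMSO well. With Gusuibu it was -1.07 (SE 0.67, adjusted p = 0.433, exact permutation p = 0.0475). In CPM all 3 Gusuibu wells were under the DMSO median of 136, the highest of them, with 5 counts, at 128. Neither the Yinyanghuo nor the Gusuibu change was called with all wells. EGF was called lower without the third Yinyanghuo well (-2.60) and without the second Gusuibu well (-2.13). The change with Roucongrong exceeded that with Gusuibu by 2.71 (SE 0.96, adjusted p = 0.0734).

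HRAS (chr11:532242-535576, minus strand) had 7, 1 and 27 counts with Roucongrong, against 0 to 8 (median 2.5) in its DMSO wells. The third well stood above every DMSO well and the second was below 10 of the 16. The log2 fold change was 2.42 (SE 0.71, adjusted p = 0.0521 in edgeR; exact permutation p = 0.0289), a call that was lost without the third well, at 0.93 (adjusted p = 0.696).

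With Yinyanghuo, HRAS had 0, 5 and 1 counts, against 0 to 5 (median 2) in DMSO. Its highest level was in the second and shallowest well. Its log2 fold change was 0.60 (SE 0.85, adjusted p = 0.712 in edgeR) and turned to -1.71 without that well. With Gusuibu, HRAS had 0, 1 and 0 counts, against 0 to 6 (median 1). That is 1 count of 100402 against 25 of 584382, a ratio of 0.233 with an exact 95% counting interval of 0.00567 to 1.42, and the fitted log2 fold change was -1.81 (adjusted p = 0.391; exact permutation p = 0.0970). HRAS was called lower without the second Gusuibu well (-3.71), where no count was left. The HRAS change was higher with Roucongrong than with Gusuibu by 4.26 (SE 1.5, adjusted p = 0.0477), a value that rests on the third Roucongrong well and on 1 Gusuibu count.

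The third Roucongrong well, which carried most EGF and HRAS counts of that herb, was high in rarely counted genes in general. Of 175 genes with a DMSO mean under 5 counts, 34 were above every DMSO well in it, against 15 and 9 in the other wells of the herb. Such genes made up 1.19% of its counts, against 0.325% to 0.673% in the DMSO wells. The second Yinyanghuo well, which held 5 of the HRAS counts of its herb, had 28 of 185 such genes above every DMSO well and 1.47% of its counts in them, against 0.569% to 1.27% in DMSO. The second Gusuibu well had 1.17% and the third 0.913%, against 0.468% to 0.876% in DMSO. The part of this in the EGF and HRAS values was not tested. EREG in the third Roucongrong well was 15476 CPM, close to the other 2, and the EREG change without it stayed called, with log2 fold changes of 0.78 to 0.82 when any 1 Roucongrong well was left out.

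No other ligand on the panel passed adjustment. AREG (amphiregulin), whose gene neighbours EREG, had 5, 9 and 14 counts with Roucongrong against 2 to 16 in DMSO, a log2 fold change of 0.82 (SE 0.43, adjusted p = 0.319 in edgeR; exact permutation p = 0.0495), with all 3 wells above the DMSO median. Its log2 fold change was 0.62 (adjusted p = 0.610) with Yinyanghuo and 0.09 (adjusted p = 0.925) with Gusuibu. TGFA (transforming growth factor alpha) had 24, 9 and 36 counts with Yinyanghuo against 16 to 70 in DMSO, a called log2 fold change of -0.59 (SE 0.28, adjusted p = 0.230), and -0.46 (adjusted p = 0.265) with Roucongrong, with no herb well above the DMSO median in either; the Yinyanghuo call was lost under 9 of 11 alternatives, among them leaving out the second well (-0.43) or the third (-0.66). With Gusuibu the TGFA value was 0.05 (adjusted p = 0.914).

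NRAS, a RAS gene related to HRAS, was not called. It had 0 to 7 counts in the herb wells and log2 fold changes of -0.39 with Roucongrong, -0.54 with Yinyanghuo and -0.0044 with Gusuibu (adjusted p = 0.810, 0.761 and 0.999 in edgeR).

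The wider pathway was read from 46 genes of 9 lists, of which 42 are not among the 4 genes above. With Roucongrong, 2 of these 42 were called higher (MMP7 and PIK3R2) and 1 lower (THEM4), where 10.2% of all genes were called in either direction. With Yinyanghuo, 1 was called higher (FOS) and 3 lower (NCK1, RASA1 and TGFA), where 15% of all genes were called. With Gusuibu, 3 were called higher (PIK3R1, PLCG1 and SHC2) and none lower, where 9.45% of all genes were called. Over all 46 genes the median log2 fold change was 0.13, -0.14 and 0.21 for Roucongrong, Yinyanghuo and Gusuibu, beside -0.04, -0.13 and 0.04 over all genes tested. Without the third Roucongrong well, 1 of the 46 genes was called with Roucongrong in place of 7, and 9 in place of 5 were called with Yinyanghuo without the first well or without the third. Without the second Gusuibu well, 6 were called in place of 3. Of the 10 calls outside the 4 genes, 9 were lost when 1 of the 3 herb wells was left out, and RASA1 was the exception. The RASA1 call uses the unadjusted p, and its adjusted p reached 0.475 among the alternative fits.

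Among adaptors and RAS regulators, both changes past the adjusted threshold were falls with Yinyanghuo. NCK1, an SH2 and SH3 adaptor, had 49, 17 and 95 counts, and its level was 2070 ± 773 (SD, n = 3) CPM, below the 3426 ± 408 (SD, n = 16) of DMSO by a log2 fold change of -0.69 (SE 0.18, adjusted p = 0.0130 in edgeR; exact permutation p = 0.00206), which was -0.45 and no call without the shallow second well. RASA1, a GTPase-activating protein that ends the RAS signal, had no count in any of the 3 wells against 0 to 8 (median 4.5) in DMSO (adjusted p = 0.0163 in edgeR). Against a floor of 3 counts over the group, RASA1 was at least 3.46-fold lower. This bound covers counting error only and not the spread between wells. SHC2, an adaptor of the SHC family, was called higher with Gusuibu at a log2 fold change of 1.65 (adjusted p = 0.152), or 1.11 and no call without the third well. The list median with Yinyanghuo was -0.44, also with RASA1 set at its bound.

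In the other arms below the receptor, PLCG1 (phospholipase C gamma), which cuts a membrane lipid into second messengers, was the gene past adjustment. It had 11, 74 and 38 counts with Gusuibu against 5 to 28 in DMSO, a log2 fold change of 1.40 (SE 0.36, adjusted p = 0.0187 in edgeR; exact permutation p = 0.0186), and all 3 wells were above the DMSO median. Without the second well its log2 fold change was 0.75 and it was not called. The kinase MAPK3 (ERK1) had 4 to 14 counts in the herb wells and log2 fold changes of -0.20, -0.14 and 0.16 with Roucongrong, Yinyanghuo and Gusuibu (adjusted p = 0.806, 0.864 and 0.853). RICTOR, a part of the mTOR complex that phosphorylates AKT, had -0.16, 0.06 and 0.25 (adjusted p = 0.698, 0.836 and 0.520). Of 15 PI3K and AKT genes, PIK3R2 (1.67) and THEM4 (-0.72) were called with Roucongrong and PIK3R1 (0.74) with Gusuibu. They were not called without the first Roucongrong well (0.42 and -0.55) and without the second Gusuibu well (0.40). Nor were they called without the third well of either herb (1.75, -0.58 and 0.67). PIK3R2 had 0 to 5 counts in the Roucongrong wells, against 0 to 3 in DMSO.

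Of the metalloproteases that can free ligands, 3 were on the panel. MMP7 was called higher with Roucongrong (log2 fold change 1.99, adjusted p = 0.155 in edgeR), on 0 to 32 counts against 0 to 8 in DMSO. The log2 fold change turned to -1.37 without the third well. MMP3 had 1 to 12 counts in the herb wells and was called with none of the 3 herbs. Of 7 early genes that respond to ERK, FOS was called higher with Yinyanghuo (1.94, adjusted p = 0.165). It had 0 to 10 counts there against 0 to 6 in DMSO, and was not called without the second well (1.82) or the third (1.10). CCND1 (cyclin D1), the most counted of these early genes, had log2 fold changes of -0.35 with Roucongrong, 0.39 with Yinyanghuo and 0.24 with Gusuibu (adjusted p = 0.319, 0.187 and 0.538).

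**Figure D5:**
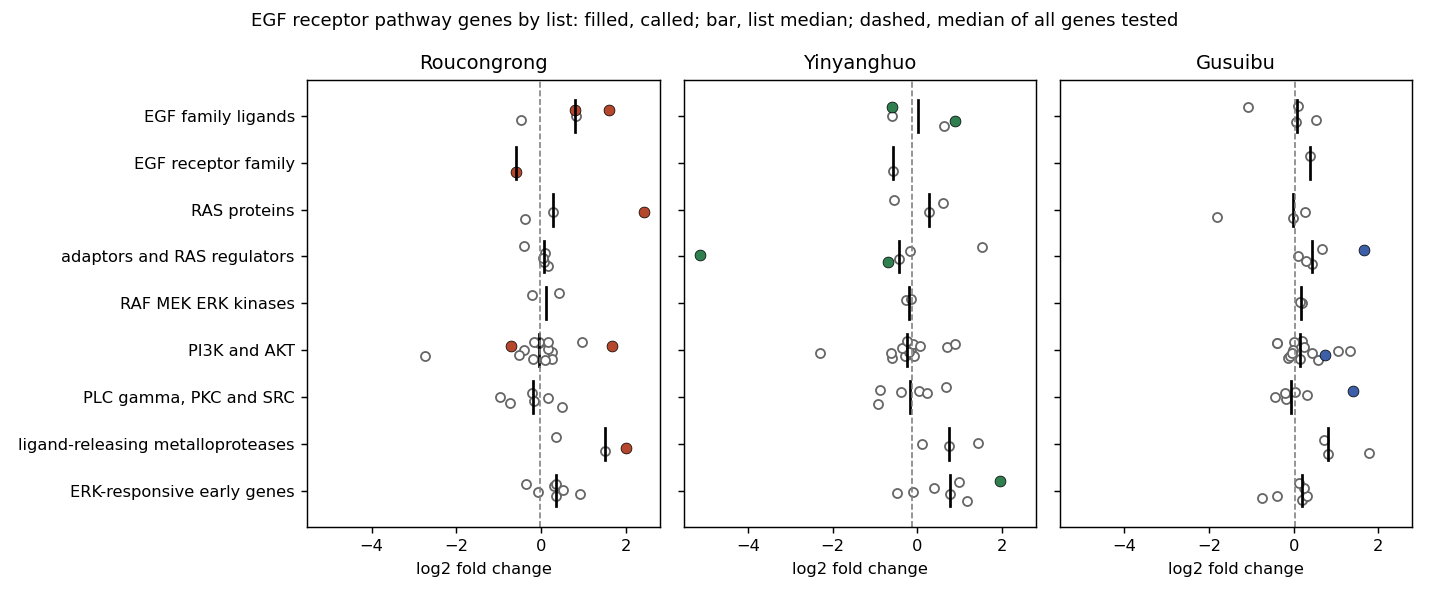
Log2 fold change of the 46 pathway genes by list and herb; filled points were called, bars are list medians and dashed lines the median of all genes tested. The called genes are those named in the text. The point at the far left with Yinyanghuo is RASA1, which had no count in the treated wells, so its place depends on the fit. Only the bound of 3.46-fold can be read, and it covers counting error only.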

How the data were processed

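RNA of 57 wells of HK-2 cells was measured by RASL-seq. The authors aligned read 1 to the probe sequences with Bowtie2 2.2.4, allowing up to 3 mismatches, and deposited raw counts per gene and well, with Entrez gene IDs. Their further tool was DESeq2 1.22.1. No other values were used. All 412 IDs matched a symbol.

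Genes with a nonzero total entered edgeR 4.0.16 (R 4.3.3; TMM, quasi-likelihood F test) for each herb with the DMSO wells of its set, all 4 genes included. Differences between herbs and between DMSO sets were contrasts in fits of 57 and 48 wells. Exact permutation tests were two-sided, on mean log2 CPM (prior count 2). Each p-value of a relation used 100000 permutations. Scripts were tested on simulated data. Same-numbered wells were checked for pairing: 2 of 9 pairs correlated above 0.1, so no block was used. No wells had identical counts, and the lowest chi-squared per degree of freedom between wells of a group was 1.66.

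Alternatives were RLE and total count scaling, DESeq2 1.42.0, filters on low counts (a mean of at least 5, filterByExpr), each herb well left out, all 57 wells in 1 fit, the DMSO wells of the other sets, a replicate block and a pseudocount of 2 in the ratio. Named pathway genes were the ligands, receptors and RAS genes (1 item is not reported here), other list genes with an adjusted p under 0.05 in a herb, for other lists the most counted gene, and called genes, which were named after their values were seen. The genes and lists were chosen with earlier results of these data known. Depth was 13581 to 75969 counts per well, so genes with few counts were measured coarsely. Sequences are from RefSeq (GRCh38.p14).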

Additional observations from a re-analysis of the deposited data

Results flagged for a closer look

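The change of EGFR differed between herbs by the test of the difference itself: it was lower with Yinyanghuo than with Gusuibu by -0.95 on the log2 scale (adjusted p = 0.0162 in edgeR), and the Roucongrong change was below the Gusuibu one by -0.98 (adjusted p = 0.0204). The change of HRAS was higher with Roucongrong than with Gusuibu by 4.26 (adjusted p = 0.0477 in edgeR), on 7, 1 and 27 counts in the Roucongrong wells and 0, 1 and 0 counts in the Gusuibu wells. All 3 differences lie between sets as well as between herbs, which cannot be told apart.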

How the results depend on the processing

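Of the values recomputed under alternatives, 41 lost a call, 12 gained one, 6 changed sign and 20 counts moved beyond 1.5 times, and the rest kept their direction and their side of the threshold. The called rise of EREG with Roucongrong and with Yinyanghuo kept its call, which uses the unadjusted p, under all 11, and its adjusted p was above 0.05 only with the replicate block (0.0550 and 0.271). Leaving out 1 well at a time gave 24 to 54 genes called with Roucongrong (41 with all wells), and 1 to 10, 5 to 9 and 2 to 6 pathway genes called with Roucongrong, Yinyanghuo and Gusuibu. Log2 fold changes then ran from 0.13 to 2.21 for EGF, -0.65 to -0.51 for EGFR and 0.93 to 2.99 for HRAS with Roucongrong. With Yinyanghuo they ran from -2.60 to -0.21 for EGF, -0.68 to -0.46 for EGFR and -1.71 to 1.21 for HRAS, and with Gusuibu from 0.40 to 0.62 for EREG, -2.13 to -0.75 for EGF and -3.71 to -1.17 for HRAS.

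The DESeq2 Wald test called 26 genes with Roucongrong and 21 with Gusuibu. A mean count of at least 5 left 21 and 19 calls and filterByExpr 19 and 20, with fewer genes tested, and with filterByExpr 3 pathway genes were called with Roucongrong and EGFR, at -0.57, was not. HRAS could not be recomputed under either filter, nor EGF with Gusuibu under both or with Yinyanghuo under filterByExpr, since the filters removed them. EREG was called with Gusuibu under RLE (0.59), total count scaling (0.60) and DESeq2 (0.59). RLE moved the median of all genes by less than 0.1 (0.08 at most), but the share of calls that were higher was 63.5% in place of 51.7% with Yinyanghuo and 91.9% in place of 81.6% with Gusuibu; it turned the DMSO level differences of EGF (Roucongrong minus Gusuibu, -0.028) and EGFR (Yinyanghuo minus Roucongrong, 0.012), neither past the threshold.

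With all 57 wells in 1 fit, Gusuibu had 24 genes called and 1 pathway gene. With DMSO wells taken from the other sets, 11 pathway genes were called with Yinyanghuo and 6 with Gusuibu, EGFR was called with Yinyanghuo (-0.86) and with Gusuibu (0.86), HRAS with Gusuibu (-2.37), and the Gusuibu EREG to EGFR log2 ratio turned to -0.36. The replicate block, with numbers that do not pair the wells (r from -0.48 to 0.45, none of the wells most like its own number), left 26, 37 and 22 genes called with Roucongrong, Yinyanghuo and Gusuibu, and 2 pathway genes with Yinyanghuo. With the block, EGF (0.61) and EGFR (-0.52) were not called with Roucongrong, and EGF with Yinyanghuo was 0.14. MMP7 with Roucongrong ran from -1.37 to 2.60 when 1 well was left out. The causes were not tested. Depth limits EGF, HRAS, AREG, NRAS, RASA1, MMP7, PIK3R2 and FOS, which had under 20 counts in most wells.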
